A study of Mus musculus with 2 samples.

Results

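The 10 CXC chemokine genes described here are *Cxcl1*, *Cxcl2*, *Cxcl3*, *Cxcl5*, *Cxcl9*, *Cxcl10*, *Cxcl11*, *Cxcl16*, *Cxcl12* and *Pf4*. They were chosen by gene symbol, and each had 1 row among the 37451 genes of the deposited table. The table comes from RNA-Seq of bone marrow-derived macrophages (BMDMs) with or without tristetraprolin (TTP), an RNA-binding protein that destabilizes many mRNAs of inflammation. It holds 1 WT and 1 ΔM library, which were made as controls for the mapping of TTP binding sites and are compared here by level.

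WT BMDMs came from C57BL/6 littermates, and ΔM BMDMs from C57BL/6 mice carrying the TTP fl/fl alleles and LysMCre, in which Cre is driven by the lysozyme M gene of myeloid cells. All mice were 7 to 9 weeks old. Macrophages of both genotypes were grown with CSF-1 from L929 cells, labeled with 100 μM 4-thiouridine for 16 h, and then stimulated with 10 ng/ml LPS for 6 h. No unstimulated library was analysed here, so values show levels after LPS and not induction. Because 1 library stands for each genotype, differences have no replicate check and no p-value. Levels are in FPKM, meaning fragments normalized to exon length and to all mapped fragments of the library, so that levels of different genes are given per length. Some housekeeping genes are low in this table. *Gapdh* was listed at 3.59 FPKM in WT and 2.54 in ΔM and *Ppia* at 4.07 and 2.86, beside *Actb* at 2125 and 1951, named after their values were seen. Levels compared between genes, places by level and sums below therefore hold for the listed values only. Depth estimated from the steps between low FPKMs was 37050000 fragments in WT and 32850000 in ΔM. Intervals given below are 95% Poisson intervals of the estimated fragments and cover counting error only.

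Chemokines are small secreted proteins that guide leukocytes, and the CXC class is named for a single residue between its first cysteines. Members with the ELR motif act through CXCR2 and attract neutrophils. Ligands of CXCR3 are induced by interferons and attract activated T cells and NK cells, whereas other members serve retention, scavenging or platelet functions.

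The targeted gene, *Zfp36*, which encodes TTP, was listed at 65.3 FPKM in WT and 16.7 in ΔM, 3.91-fold lower in the library labeled ΔM (interval, 3.63- to 4.21-fold). Reads outside the deleted part may contribute to the ΔM value. *Lyz2*, which encodes lysozyme M and whose locus carries the Cre, was listed at 2481 FPKM in WT and 1356 in ΔM. All 8 macrophage markers examined, among them *Csf1r*, *Emr1* and *Cd68*, had a mean of at least 1 FPKM, with a median log2 ratio of −0.04. Their summed level was 4001 FPKM in WT and 2864 in ΔM, and without *Lyz2*, left out after its values were seen, it was 1520 and 1508 over the other 7.

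Among the 10 CXC chemokine genes, 8 had at least 1 FPKM in each library, and *Cxcl5* and *Cxcl12* lay below that level in both. Of these 8, *Cxcl1*, *Cxcl2* and *Cxcl3* were at least 2-fold higher in ΔM on the log2(FPKM + 1) scale, and 0 were at least 2-fold lower. With a pseudocount of 5 FPKM *Cxcl3* was no longer past 2-fold, at a log2 ratio of 0.81, whereas *Cxcl1* and *Cxcl2* were. Over all 10765 genes whose mean reached 1 FPKM, 5.69% were at least 2-fold higher and 3.61% at least 2-fold lower. Over the 8078 protein-coding genes among them, the shares were 1.19% and 1.32%, together 2.51%, against 5.06% with a pseudocount of 0.1 FPKM and 0.545% with 5 FPKM. The median log2 ratio of ΔM to WT was −0.01 over the 8 members, with 4 above and 4 below 0, and −0.0015 over these protein-coding genes. Differences past 2-fold lay with neutrophil-attracting genes, while the other 5 members with at least 1 FPKM were within 2-fold. In bulk RNA, fewer cells making an mRNA and less mRNA per cell cannot be told apart.

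*Cxcl2* (ENSMUSG00000058427), which encodes the neutrophil chemoattractant MIP-2, was listed at 87.9 FPKM in WT (85.2 to 90.6) and 439.95 in ΔM (434 to 446). Its level was 5.01-fold higher in ΔM (4.84- to 5.18-fold), a log2 ratio of 2.31. *Cxcl1* (ENSMUSG00000029380), encoding the neutrophil attractant KC, was listed at 11.99 FPKM in WT (10.8 to 13.4) and 62.6 in ΔM (59.5 to 65.8). The fold was 5.22 (4.64 to 5.90), with a log2 ratio of 2.29. The fold intervals of *Cxcl1* and *Cxcl2* overlapped, so these genes were not ordered by their rise. Per length, *Cxcl2* exceeded *Cxcl1* 7.33-fold in WT and 7.02-fold in ΔM, and the relation between both mRNAs was thus nearly kept.

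*Cxcl3* (ENSMUSG00000029379), a close relative that also acts through CXCR2, had 5.39 FPKM in WT (4.6 to 6.3) and 13.2 in ΔM (11.9 to 14.7). It was 2.45-fold higher in ΔM (2.03- to 2.97-fold), and its interval lay below those of *Cxcl1* and *Cxcl2*. The level of *Cxcl2* was 16.3 times that of *Cxcl3* in WT and 33.3 times in ΔM. *Cxcl5*, a neutrophil attractant known mainly from epithelium, was listed at 0.06 FPKM in WT and 0.08 in ΔM, which corresponds to about 3 and 4 fragments. No difference of *Cxcl5* was detectable at this depth. Among further genes of the ELR class, the platelet chemokine gene *Ppbp* had 0.24 FPKM in WT and 0.03 in ΔM, and *Cxcl15* was listed at 0.01 FPKM in WT and at 0 in ΔM.

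The *Cxcl2* and *Cxcl3* mRNAs are similar in sequence. Of the 1830 windows of 50 nt in annotated *Cxcl2* transcripts, 61 also occurred in a *Cxcl3* transcript, which is 3.33% of *Cxcl2* and 6.35% of the 960 *Cxcl3* windows. No window of *Cxcl1* was shared with another protein-coding gene. Windows were compared on both strands. Of the 2559 *Cxcl16* windows, 503 (19.7%) also occurred in *Zmynd15*, a gene on the opposite strand that overlaps *Cxcl16* by 552 nt. Of the 2898 *Cxcl9* windows, 11 (0.38%) occurred in other genes.

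*Cxcl10* (ENSMUSG00000034855), encoding the CXCR3 ligand IP-10, was by far the most abundant member. It was listed at 4171 FPKM in WT (4141 to 4201) and 4521 in ΔM (4488 to 4555), 1.08-fold higher in ΔM (1.07- to 1.10-fold). Among 22259 protein-coding genes, it held place 2 by level in either library. The other CXCR3 ligands were far less abundant. *Cxcl9*, which encodes MIG, had 21.6 FPKM in WT (20.7 to 22.6) and 17.5 in ΔM (16.6 to 18.4), 1.23-fold lower in ΔM (1.15- to 1.32-fold). *Cxcl11*, encoding I-TAC, had 16.6 FPKM in WT (15.8 to 17.4) and 12.03 in ΔM (11.3 to 12.8), 1.38-fold lower (1.27- to 1.5-fold). In C57BL/6 mice *Cxcl11* carries a frameshift and gives no functional protein, and GENCODE M1 annotates it as a processed transcript. Per length, *Cxcl10* exceeded *Cxcl9* 193-fold in WT and 258-fold in ΔM.

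*Pf4*, which encodes the platelet factor CXCL4 and is also made by macrophages, was listed at 114 FPKM in WT (109 to 120) and 91.7 in ΔM (86.4 to 97.1). It was 1.25-fold lower in ΔM (1.16- to 1.35-fold). Platelet and megakaryocyte markers were near 0, with a summed level of 0.74 FPKM over 6 genes in WT and 0.31 in ΔM, *Itga2b* as the most abundant at 0.46 and 0.20 FPKM, and *Gp9* and *Gp1bb* listed at 0 in both. *Cxcl16*, a transmembrane chemokine that binds CXCR6 and takes up oxidized lipoprotein, had 84.3 FPKM in WT (81.8 to 86.8) and 76.2 in ΔM (73.7 to 78.7), 1.11-fold lower (1.06- to 1.16-fold). *Cxcl12*, which retains hematopoietic cells in bone marrow and is made there mainly by stroma, was listed at 0.02 FPKM in WT and at 0 in ΔM. Fibroblast and stroma markers were likewise near 0, at 0.64 FPKM in WT and 0.40 in ΔM over 6 genes. Their most abundant gene was *Col3a1* in WT, at 0.30 FPKM against 0.09 in ΔM, and *Col1a2* in ΔM, at 0.18 FPKM against 0.20 in WT. *Lum* was listed at 0 in both.

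**Figure D1:**
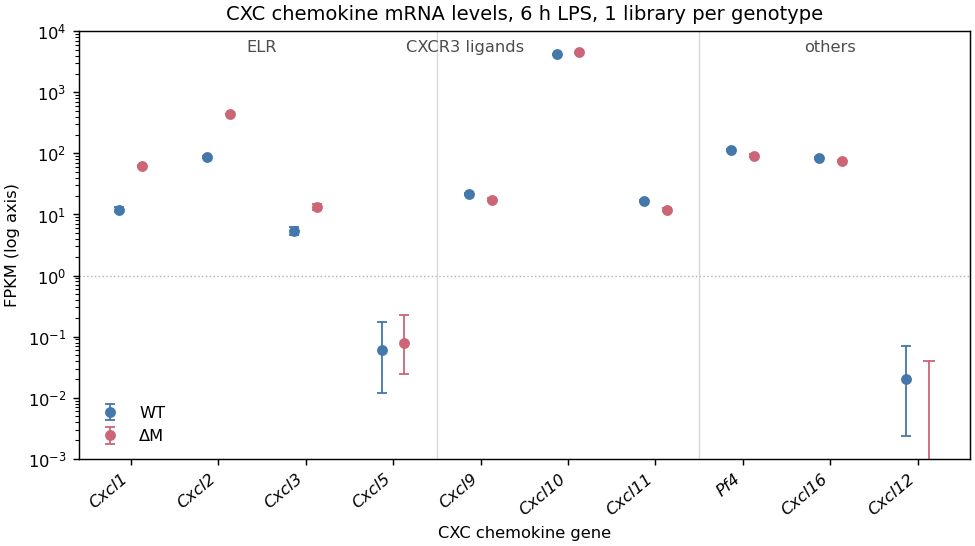
FPKM (log axis) of the 10 CXC chemokine genes in 1 WT and 1 ΔM library, grouped by role; bars are 95% counting intervals, the dotted line marks 1 FPKM, and the *Cxcl12* value of 0 in ΔM is drawn as its upper limit alone. *Cxcl10* lies at 4171 and 4521 FPKM, and *Cxcl1*, *Cxcl2* and *Cxcl3* are higher in ΔM.

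In WT, levels in FPKM ran from *Cxcl10* through *Pf4*, *Cxcl2*, *Cxcl16*, *Cxcl9*, *Cxcl11*, *Cxcl1* and *Cxcl3* to *Cxcl5* and *Cxcl12*. *Cxcl2* and *Cxcl16* were not ordered, since their counting intervals overlapped, and neither were *Cxcl5* and *Cxcl12*. In ΔM the order was *Cxcl10*, *Cxcl2*, *Pf4*, *Cxcl16*, *Cxcl1*, *Cxcl9*, *Cxcl3*, *Cxcl11*, *Cxcl5* and *Cxcl12*. Here *Cxcl3* and *Cxcl11* were not ordered, nor were *Cxcl5* and *Cxcl12*. *Cxcl2* thus moved from a level near *Cxcl16* to 5.78 times that of *Cxcl16*. By level among protein-coding genes, *Cxcl2* held place 444 in WT and 62 in ΔM, and *Cxcl1* places 2692 and 610.

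The summed level of the 10 genes was 4513 FPKM in WT and 5235 in ΔM. *Cxcl10* alone made up 92.4% of this sum in WT and 86.4% in ΔM. The summed level of *Cxcl1*, *Cxcl2*, *Cxcl3* and *Cxcl5* was 105 FPKM in WT and 516 in ΔM, or 2.33% and 9.85% of the sum, and *Cxcl2* alone held 352.1 of the 410.6 FPKM between these values. In FPKM units the difference of *Cxcl2* (352) was about that of *Cxcl10* (350), although their folds were 5.01 and 1.08.

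By log2 ratio, *Cxcl2* and *Cxcl1* held places 2 and 3 among 3032 protein-coding genes that averaged at least 10 FPKM and had a median transcript of at least 300 nt. Among all 8078 protein-coding genes averaging at least 1 FPKM, their places were 8 and 9, and that of *Cxcl3* was 60. With a pseudocount of 0.1 FPKM *Cxcl1* came before *Cxcl2*, at log2 ratios of 2.38 and 2.32. *Plekhg2* had the largest ratio of the 3032 genes, with 7.82 FPKM in WT and 280.3 in ΔM. After the chemokines in this smaller set followed *Il10* at 1.82, *Ccl3* at 1.44, *Zfp217* at 1.40, *Ndrg1* at 1.34, *Il27* and *Rab11fip5* at 1.33 and *Hagh* at 1.17 on the log2 scale. For each member with a mean of at least 10 FPKM, the nearest protein-coding genes in the plane of log2(FPKM + 1) were sought over the 2 libraries. Nearest to *Cxcl2* were *Il27* and *Ccl12*, at distances of 0.76 and 0.92 on the log2 scale, and nearest to *Cxcl1* were *Polr2b* and *Ly6a*, at 0.90 and 0.93. *Saa3* lay nearest to *Cxcl10*, at a distance of 0.26, followed by *Lgals3* at 0.93. *Cxcl9*, *Cxcl11*, *Cxcl16* and *Pf4* had neighbours within 0.05, namely *Ciapin1* and *Etf1*, *Sgk1* and *Sgcb*, *Slc31a2* and *Cebpb*, and *Il10rb* and *Snd1*.

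**Figure D2:**
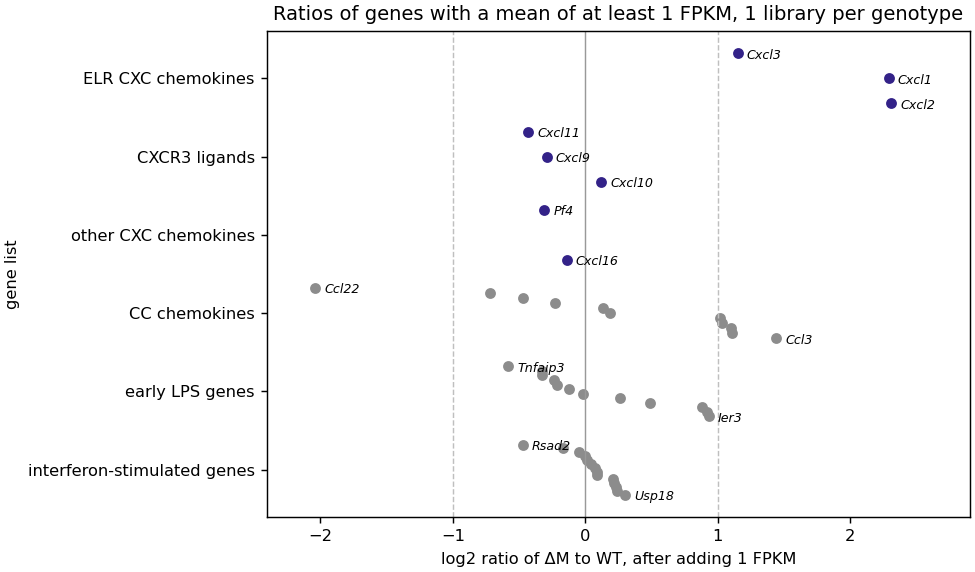
Log2 ratios of ΔM to WT, after adding 1 FPKM, in 6 gene lists for genes averaging at least 1 FPKM; each point is a gene, dashed lines mark 2-fold, and the vertical offset within a list only separates points. *Cxcl1*, *Cxcl2* and *Cxcl3* lie right of the 2-fold line, and all CXCR3 ligands and interferon-stimulated genes lie between both lines.

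Beside the CXC genes, 17 of 19 CC chemokine genes listed had exactly 1 row, and 11 of them a mean of at least 1 FPKM. Of these 11, 5 were at least 2-fold higher in ΔM (*Ccl3*, *Ccl2*, *Ccl12*, *Ccl7* and *Ccl8*) and 1 at least 2-fold lower (*Ccl22*), beside 1.19% and 1.32% of the 8078 protein-coding genes. *Ccl3*, encoding MIP-1α, was listed at 923 FPKM in WT and 2501 in ΔM, and *Ccl22*, encoding a CCR4 ligand, at 48.0 and 10.9. The log2 ratios of *Cxcl1* and *Cxcl2* exceeded that of *Ccl3*. Past 2-fold in either direction were 2.51% of the protein-coding genes, 0 of 12 early LPS genes and 0 of 14 interferon-stimulated genes. The early LPS genes had a median log2 ratio of −0.07, *Ier3* as the highest at 0.93 and *Tnfaip3* as the lowest at −0.58. *Tnf* at 0.92 and *Ptgs2* at 0.88 also lay just under 2-fold, while 7 of the 12 were below 0. The interferon-stimulated genes had a median of 0.08, between −0.47 for *Rsad2* and 0.30 for *Usp18*. The log2 ratios of *Cxcl9* (−0.29), *Cxcl10* (0.12) and *Cxcl11* (−0.43) fell inside that range. They also fell inside the range of the early LPS genes, and *Pf4* (−0.31) and *Cxcl16* (−0.14) lay inside both ranges.

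Receptors for the CXC chemokines were low. All 7 CXC receptor genes had a mean below 1 FPKM, with *Cxcr4* as the highest at 0.34 FPKM in WT and 0.39 in ΔM, and *Cxcr2*, the receptor of the ELR members, listed at 0 in both. Of 3 atypical chemokine receptor genes with 1 row, *Ccrl2* reached 35.2 FPKM in WT and 25.4 in ΔM. Proteases that process CXC chemokines were present, and 4 of 5 had a mean of at least 1 FPKM. *Adam17*, a sheddase, had 156 and 97.8 FPKM in WT and ΔM, *Mmp12*, a macrophage elastase, 159 and 121 FPKM, and *Adam10*, which sheds CXCL16, 3.76 and 5.18 FPKM. None of these was past 2-fold. Of the 7 mRNA decay regulators, 5 had a mean of at least 1 FPKM, and of these 5 *Zfp36* alone was past 2-fold and *Hnrnpd* was the highest, at a log2 ratio of 0.32. *Zfp36l1* and *Zfp36l2*, TTP relatives, had 0.35 and 0.71 FPKM in WT and 0.99 and 1.22 in ΔM, and *Zc3h12a*, encoding Regnase-1, had 30.2 FPKM in WT and 21.9 in ΔM.

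Markers of other cell types were examined, neutrophils first. Their 8 markers summed to 50.8 FPKM in WT and 101 in ΔM, of which *S100a8*, also made by stimulated macrophages, held 50.7 and 100.02 FPKM. *S100a9*, *Ly6g*, *Elane* and *Ngp* were listed at 0 in both libraries, and an exact 0 in such a table can be a failed estimate. Whether cells carrying *S100a8* had a part in the chemokine differences was not tested. Markers of dendritic cells summed to 0.53 and 0.50 FPKM in WT and ΔM over 6 genes, with *Ccr7* as the most abundant, B cell markers to 0.10 and 0.37 over 5 genes, and NK cell markers to 0.09 and 0.06 over 5 genes. T cell markers summed to 10.6 and 11.6 FPKM over 6 genes, nearly all from *Lck*, with *Cd3e* and *Cd3g* listed at 0 in both. Endothelial markers summed to 6.22 and 3.61 FPKM over 5 genes, mostly from *Kdr*.

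Of the 10 genes, 8 lie on chromosome 5 of NCBIM37 (mm9) in a pair of clusters 1415421 nt apart. The first spans chr5:91188325-91334935 and holds *Cxcl5*, *Ppbp*, *Pf4*, *Cxcl3*, *Cxcl15*, *Cxcl1* and *Cxcl2*, all on the plus strand, with the short genes *AC105995.1* and *5S_rRNA* listed at 0 in both libraries. Neighbours in this cluster differed, as *Pf4* (log2 ratio −0.31) lies between *Ppbp* and *Cxcl3* (1.15). *Cxcl1* and *Cxcl2*, with log2 ratios of 2.29 and 2.31, are separated by 10755 nt. The second cluster spans chr5:92750357-92794511 and holds *Cxcl9*, *Cxcl10* and *Cxcl11* on the minus strand. *Art3*, on the plus strand, covers *Cxcl10* and *Cxcl11* whole and was listed at 0.86 FPKM in WT and 1.02 in ΔM, while the pseudogene *Gm2673* overlaps *Cxcl11* and was listed at 0. *Cxcl16* lies on chromosome 11 and shares 552 nt with *Zmynd15* on the opposite strand, which had 2.03 and 2.08 FPKM and was named because of this overlap after its values were seen. Whether counting used strand was not given in the sources used here, so reads from overlapping genes cannot be told apart. *Cxcl12* lies on chromosome 6.

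**Figure D3:**
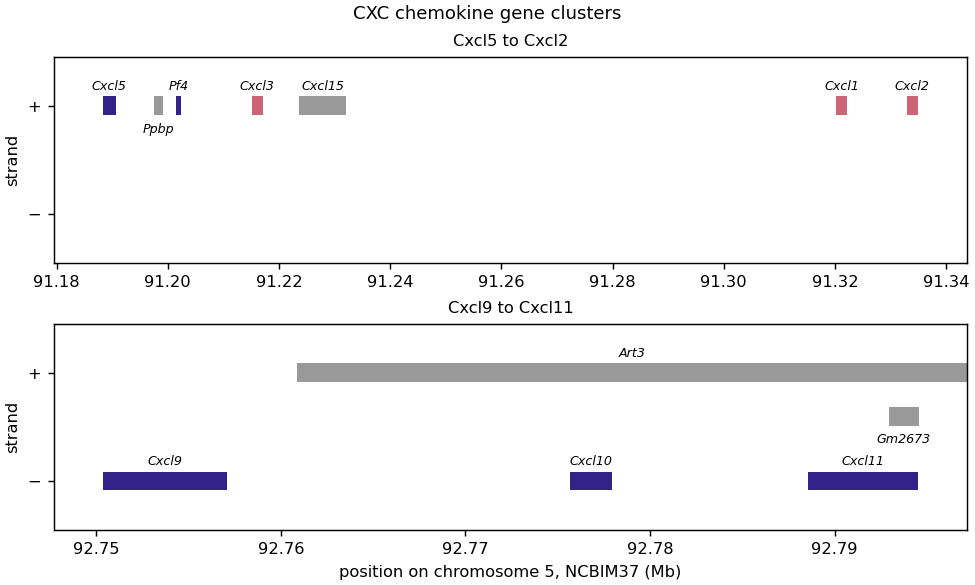
Map of both CXC chemokine gene clusters on chromosome 5 (NCBIM37, positions in Mb) by strand, without genes shorter than 200 nt; red marks members at least 2-fold higher in ΔM, blue the other members and grey other genes, and *Gm2673*, on the plus strand, is drawn below *Art3*. *Cxcl1*, *Cxcl2* and *Cxcl3* share the first cluster with *Pf4*, which was not past 2-fold, and with *Cxcl5*, which was too low for a fold.

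AU-rich elements in the 3′ UTR are the preferred binding sequence of TTP, so the letters TATTTAT and ATTTA were counted in the longest annotated 3′ UTR of each member, on the transcribed strand and with overlaps. *Cxcl2* held 7 copies of TATTTAT in 1465 nt. As many were found in 5 of 2732 other genes with a 3′ UTR within 20% of that length, or 0.183%. *Cxcl1* held 6 copies in 592 nt, which 1 of 2086 genes of similar 3′ UTR length matched or exceeded (0.0479%). *Cxcl3* held 2 copies in 638 nt, and 3.60% of 2169 genes of similar 3′ UTR length held as many or more. *Cxcl9*, *Cxcl10*, *Cxcl16* and *Pf4* held 0 copies, and 41.4%, 17.6%, 30.3% and 3.21% of genes with similar 3′ UTR length held at least 1. *Cxcl5* and *Cxcl12* each held 1 copy, and 25.6% and 62.7% of genes of similar 3′ UTR length held as many or more. The shorter ATTTA occurred 11 times in *Cxcl2*, 7 times in *Cxcl1*, 5 times in *Cxcl3*, 5 times in *Cxcl5*, 4 times in *Cxcl12*, 3 times in *Cxcl9*, 2 times in *Cxcl10* and *Cxcl16* and 1 time in *Pf4*. In this order, 0.512%, 0.336%, 2.72%, 11%, 84.5%, 64.7%, 30.4%, 57.5% and 16% of genes of similar 3′ UTR length held as many or more. Of all 20007 genes with an annotated 3′ UTR, 23.8% held TATTTAT and 61.3% ATTTA. *Cxcl11* has no annotated 3′ UTR, and *Cxcl5* and *Cxcl12* were too low for a fold, so counts and folds stand side by side for 7 genes only. A relation between them was not tested.

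Sequences of TTP sites that the study lists for 6 h of LPS are shown for *Cxcl2*, *Cxcl1* and *Cxcl10*, chosen after their values were seen. The site lists of *Cxcl1* and *Cxcl10* were read only in part. Only sites on chromosome 5 were read, so *Cxcl12* and *Cxcl16* were not looked up. No site was read for the other members on that chromosome, *Cxcl3* among them. Sites read whole were 3 for *Cxcl2*, 8 for *Cxcl1* and 9 for *Cxcl10*. In this order, TATTTAT occurred in 1, 2 and 0 of them, and ATTTA in 1, 3 and 1. Of the sites that could be read whole, the longest of each gene is given, together with the *Cxcl1* sites that hold TATTTAT. Sites longer than 30 bases, those of *Cxcl2* (45 nt) and *Cxcl10* (31 nt), were shortened to 30. The stretch kept was the one with the most TATTTAT and then the most ATTTA, so its motif content was selected. All lie in 3′ UTRs and equal NCBIM37 at their positions. Capitals mark TATTTAT, or ATTTA where TATTTAT is lacking.
Cxcl2 at chr5:91334353-91334382, plus strand: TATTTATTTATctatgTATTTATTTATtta
Cxcl1 at chr5:91321633-91321645, plus strand: tccTATTTATtta
Cxcl1 at chr5:91321651-91321660, plus strand: tTATTTATtc
Cxcl1 at chr5:91321675-91321697, plus strand: tttttattttacattaatATTTA
Cxcl10 at chr5:92775884-92775913, minus strand: cctgaaaatgtatgtgtaaatactATTTAa

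Promoters of the members were searched for motifs chosen after the values were seen. RefSeq promoters (GRCm38.p6, 250 bases before to 50 after the gene start) matched 7 of the 10 members. The κB consensus, taken as GGGRNYYYCC (R for A or G, Y for C or T, N for any base) and searched on both strands, occurred in 4 of these 7, *Cxcl1*, *Cxcl2*, *Cxcl3* and *Cxcl10*, and in 6.55% of 27025 genes. The wider GGGRNNYYCC, added after the values were seen, occurred in the same 4 members and in 9.55% of genes. It gave a further *Cxcl10* match 159 bases before the start that is not marked below. On the opposite strand it also matched 70 bases before the start in *Cxcl1*, 96 in *Cxcl2* and 72 in *Cxcl3*, overlapping the marked matches. GGGRNYYYCC began 71 bases before the start in *Cxcl1*, 97 in *Cxcl2* and 73 in *Cxcl3*, and *Cxcl10* had overlapping matches 104 and 103 bases before it. The core of the interferon-stimulated response element, GAAA, any 2 bases and GAAA, occurred in *Cxcl10* only among the 7, 213 bases before the start, and in 3.99% of genes. TGANTCA was found in *Cxcl9* and *Cxcl10* and in 8.97% of genes, and TATAAA, searched on the transcribed strand, in *Cxcl3* and *Cxcl9* and in 9.77% of genes. The 250 bases before the start are shown for the members with a κB match, with GGGRNYYYCC and the response element core in capitals.
Cxcl1 at chr5:90890995-90891244, plus strand: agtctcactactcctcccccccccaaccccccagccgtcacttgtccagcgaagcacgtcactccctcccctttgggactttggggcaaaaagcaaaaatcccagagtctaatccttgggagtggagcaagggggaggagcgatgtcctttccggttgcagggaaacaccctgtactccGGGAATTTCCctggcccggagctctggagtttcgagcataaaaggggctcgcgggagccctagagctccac
Cxcl2 at chr5:90903649-90903898, plus strand: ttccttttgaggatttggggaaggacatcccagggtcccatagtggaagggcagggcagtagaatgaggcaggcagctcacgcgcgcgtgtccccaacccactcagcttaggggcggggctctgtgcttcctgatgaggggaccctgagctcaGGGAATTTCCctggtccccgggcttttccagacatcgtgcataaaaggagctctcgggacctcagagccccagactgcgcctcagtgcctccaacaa
Cxcl3 at chr5:90785851-90786100, plus strand: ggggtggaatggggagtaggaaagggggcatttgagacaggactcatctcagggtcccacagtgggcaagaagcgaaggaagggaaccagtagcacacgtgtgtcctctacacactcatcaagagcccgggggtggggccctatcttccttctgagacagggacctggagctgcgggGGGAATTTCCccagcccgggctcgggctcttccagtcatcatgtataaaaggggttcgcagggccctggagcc
Cxcl10 at chr5:92348890-92349139, minus strand: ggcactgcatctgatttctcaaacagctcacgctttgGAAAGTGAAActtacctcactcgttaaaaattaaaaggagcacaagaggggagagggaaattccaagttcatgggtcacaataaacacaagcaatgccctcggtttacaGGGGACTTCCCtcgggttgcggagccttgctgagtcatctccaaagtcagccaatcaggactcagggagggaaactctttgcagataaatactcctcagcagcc
A match of letters does not show binding, and promoter activity was not tested.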

How the data were processed

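RNA-Seq was performed on 1 WT and 1 ΔM library. The authors depleted rRNA, fragmented the RNA, selected cDNA by size, sequenced paired ends, aligned the reads with Segemehl to mm9, used those mapping to 1 position and obtained FPKM from Cufflinks and Ensembl exons, and the deposited FPKM table has 2 decimals and 1 value per gene. Gene types, transcript lengths and 3′ UTRs were taken from GENCODE M1 on NCBIM37 (mm9). After 1 FPKM had been added to every value, which understates the change of low genes, ratios of ΔM to WT were put on the log2 scale, and genes averaging at least 1 FPKM were counted. A gene was called at 2-fold. Because no counts are in the table, a search was run over the number and the mean length of fragments, to find where the low FPKMs of genes with a single transcript come out as whole fragments within 0.0055 FPKM. The search was tested on simulated data. With genes of 400 to 1000 nt, 92.1% of 1431 low values in WT and 92.7% of 1435 in ΔM were whole, against 19.3% and 16.9% by chance, at mean fragment lengths of 201 and 202 nt. This length window was chosen after 6 windows had been compared on these data, over which the depth ranged from 36400000 to 37200000 fragments in WT and from 32250000 to 32850000 in ΔM. Intervals (95%, exact Poisson for levels and exact Clopper-Pearson for folds) used the median annotated transcript length, and no fold was given at or below 3 fragments.

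The genes named are the 10 members, genes of the lists, *Zfp36*, the 10 largest log2 ratios, the 2 genes nearest to each member averaging at least 10 FPKM, and genes of the chromosome 5 clusters. *Gapdh*, *Ppia*, *Actb* and *Zmynd15* were named in addition, after their values were seen. The members and lists were chosen with earlier results of these data known, and the promoter motifs and TTP sites shown were chosen after the values were seen. Alternatives covered the pseudocount, centring, scaling, the filter on low values, the fold, the transcript length, the length window, the macrophage sum and the κB pattern. One ΔM value without a number and protein sequences were not used here. Software comprised scipy 1.17.1, pandas 2.3.3, numpy 2.4.6 and matplotlib 3.10.9 under Python 3.11.15.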

Additional observations from a re-analysis of the deposited data

How the results depend on the processing

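No paired analysis was possible because each genotype has a single library, and for the same reason none could be left out in turn. The number of members past 2-fold was 3 with a pseudocount of 0.1 FPKM, with centred or rescaled ratios and without a filter. It was 2 with a pseudocount of 5 FPKM and with a mean of at least 10 FPKM. With other cuts, 3 members were past 1.5-fold and 2 past 3-fold. *Cxcl3* had a log2 ratio of 0.81 with a pseudocount of 5 FPKM. The median log2 ratio of the members was 0.00 without a filter and −0.14 with a mean of at least 10 FPKM. The share of protein-coding genes past 2-fold, 2.51% in all, was 5.06% with a pseudocount of 0.1 FPKM and 0.545% with 5 FPKM. It was 0.988% without a filter and 1.58% with a mean of at least 10 FPKM. The share past 1.5-fold was 10.2%, and the share past 3-fold was 0.47%. Rescaling left the median of protein-coding genes at 0.0023. The longest transcript in place of the median moved ends of the fold intervals by at most 1.39%. The 5 other length windows for depth, added after seeing the data, moved them by at most 0.13%. Depth limits *Cxcl5* and *Cxcl12*, which had at most 4 fragments in a library. Intervals cover counting error only, and the variation between mice or cultures is unknown.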
